A study of Mus musculus with 8 samples.

Results

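The IFI200 family is a cluster of interferon-inducible genes on mouse chromosome 1, and 8 of its genes, Mndal, Ifi203, Ifi204, Ifi206, Ifi208, Ifi209, Ifi211 and Ifi213, are described here out of 55359 genes in the expression tables. They were picked by gene name with their control against Lck-cre values in view, so those values are given as a description and carry no test. RNA was sequenced from double-positive (DP) thymocytes, the CD4+ CD8+ stage of T cell development, sorted from the thymus of mice aged 5 weeks as cells with no, low or intermediate TCR beta on their surface. The 4 control samples (replicates 1 to 4) carried the LSL-Sting1-N153S allele over a wild-type allele and no Cre. The 4 Lck-cre samples (replicates 5 to 8) carried LSL-Sting1-N153S together with Lck-cre. LSL stands for a stop cassette flanked by loxP sites, N153S is a STING variant with constitutive activity, and the Lck promoter drives Cre in the T cell lineage, so both groups held the conditional allele and Cre could act in T lineage cells of the second group. Each group had 1 female (control replicate 1 and Lck-cre replicate 5) and 3 males. No source used here says whether the samples came from separate animals or separate sorts, so the p-values below measure only the spread between these samples.

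IFI200 proteins, also called PYHIN proteins, typically join a pyrin domain, which binds other pyrin domains, to HIN domains, which bind DNA. The family includes sensors of DNA in the cytosol and nucleus that can act upstream of STING, as well as nuclear regulators of transcription and cell growth, and human relatives are IFI16, MNDA, PYHIN1 and AIM2. Many of the mouse genes are induced by type I interferon, which STING itself induces through TBK1 and IRF3, and they arose by local duplication, so that they share long stretches of sequence.

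The labels were checked first. Sting1 stood at 15.3, 11.6, 13.4 and 11.9 FPKM (fragments scaled to the length of the transcript and to the mapped fragments of the sample, a level per length) in control replicates 1 to 4 and at 221, 85.4, 130 and 232 in Lck-cre replicates 5 to 8, a log2 difference of 3.52 (SE 0.25, limma adjusted p = 0.00213). All Lck-cre samples lay above all controls, and within that group replicate 6 was the lowest. Cd8a stood at 941 to 1237 FPKM over the 8 samples. Cd4 stood at 699 to 788 FPKM in controls and 422 to 689 in Lck-cre samples, and the recombinase gene Rag1 at 731 to 901 and 436 to 647, so the defining DP genes were abundant in all samples, and Cd4 and Rag1 were lower in the Lck-cre group. Xist, the RNA of the inactive X chromosome, measured at least 51.7 FPKM in both females and at most 0.170 in every male. The summed FPKM was 413835 to 437426 in controls and 437778 to 457145 in Lck-cre samples. The tables hold no read counts, so the depth in reads is unknown.

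A short sequence in front of the genes is shown first because its letters differ between Ifi209 and the other members found in the promoter table. The interferon-stimulated response element (ISRE), a DNA element bound by interferon regulatory factors, was searched as its core GAAANNGAAA on both strands of the RefSeq promoter windows of build GRCm38.p6, which run from 250 bases before to 50 bases after each gene's start. Of the 7 members in that table, 6 held the core, against 3.99% of 27025 genes and 46.2% of 39 interferon-stimulated genes from a fixed list. The 1 member without a match was Ifi209. Of the other PYHIN genes searched, Aim2 and Ifi202b also had no match, while Ifi205, Ifi207 and Ifi214 held the core. Each line gives 50 bases, 5′ to 3′ on the gene's own strand, with the core in capitals. For Ifi209 the capitals mark the 10 bases that align with the core of Ifi214, its closest relative.
Mndal (chr1:173880194-173880243, minus strand): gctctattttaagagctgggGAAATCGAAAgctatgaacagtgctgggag
Ifi203 (chr1:173942498-173942547, minus strand): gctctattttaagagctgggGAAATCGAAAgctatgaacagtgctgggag
Ifi206 (chr1:173491329-173491378, minus strand): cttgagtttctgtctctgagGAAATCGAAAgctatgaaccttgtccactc
Ifi208 (chr1:173673587-173673636, plus strand): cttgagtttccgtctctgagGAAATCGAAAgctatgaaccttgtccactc
Ifi213 (chr1:173599316-173599365, minus strand): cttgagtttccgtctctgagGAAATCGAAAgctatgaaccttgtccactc
Ifi211 (chr1:173913054-173913103, minus strand): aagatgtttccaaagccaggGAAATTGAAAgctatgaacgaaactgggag
Ifi214 (chr1:173536007-173536056, minus strand): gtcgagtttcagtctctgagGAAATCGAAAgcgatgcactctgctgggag
Ifi209 (chr1:173630760-173630809, plus strand): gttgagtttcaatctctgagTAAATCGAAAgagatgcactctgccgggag

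Counted from 1 at the first base of the core, Ifi209 differs from Ifi214 by G1T. The promoter windows of these 2 genes were 95.7% identical over 300 bases. The form GAAATCGAAA occurred in 16 of 32851 windows, and 7 of those 16 belonged to genes of this family. The form GAAATTGAAA of Ifi211 occurred in 38 windows, and the TAAATCGAAA of Ifi209 in 4. The core sat close to the start in the members that held it, from -35 to -26 in Ifi203 and -36 to -27 in Mndal out to -73 to -64 in Ifi213, and the aligned letters of Ifi209 sat from -79 to -70. Ifi206, Ifi208 and Ifi213 had windows 98.5% to 98.9% identical to each other, and Ifi203 and Mndal were 94.3% identical over 299 bases, so these matches are not independent of each other. The same windows were searched for the GAS core TTCNNNGAA, another interferon response motif. It occurred in 0 of the 7 members, against 9.55% of 27025 genes and 20.5% of the 39 interferon-stimulated genes. A match or its absence describes letters in this window and not a bound site.

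The 250 bases before the start of Ifi209 are given whole, again with the 10 aligned bases in capitals, since they hold the letters that differ from the other members.
Ifi209 (chr1:173630609-173630858, plus strand): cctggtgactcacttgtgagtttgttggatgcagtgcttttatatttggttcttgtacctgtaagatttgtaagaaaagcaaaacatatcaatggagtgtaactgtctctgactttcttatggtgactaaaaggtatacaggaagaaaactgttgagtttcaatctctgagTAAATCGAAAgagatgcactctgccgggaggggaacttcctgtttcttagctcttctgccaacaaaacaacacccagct

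At the level of RNA, the family fell into 3 well expressed genes, 2 low ones and 3 near the limit of detection. Mndal was the highest, at 27.2 to 37.4 FPKM over the 8 samples, followed by Ifi209 at 15.7 to 31.2 and Ifi203 at 10.8 to 19.3. The ranges of neighbours in this order overlapped over all samples, but within every sample Mndal was above Ifi209 and Ifi203. Ifi208 (2.35 to 5.33 FPKM) and Ifi206 (1.21 to 4.07) followed, and their ranges overlapped too. These 5 genes passed the filter on low values (at least 1 FPKM in at least 4 of 8 samples), which kept 12337 genes. Ifi213, Ifi211 and Ifi204 did not pass and were not tested.

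Ifi209 was the member whose groups separated. The gene (ENSMUSG00000043263.14) encodes a PYHIN protein. It measured 31.2, 24.0, 24.9 and 18.0 FPKM in control replicates 1 to 4 and 17.4, 17.1, 16.3 and 15.7 in Lck-cre replicates 5 to 8. The lowest control lay just above the highest Lck-cre sample, so the groups did not overlap, and the Lck-cre samples lay much closer together than the controls. The means were 24.5 ± 5.39 and 16.6 ± 0.748 FPKM (SD, n = 4 each), a ratio of 0.678 and a fitted log2 difference of -0.52 (SE 0.12) on the log2(FPKM + 0.5) scale with sex as a term. As a count, from which nothing is read since the genes were picked on this contrast, 1 member of the 5 tested (Ifi209) was past the threshold used for the whole table, an adjusted p of 0.05, beside 25.8% of all tested genes in either direction and 10.4% lower in Lck-cre. It was also the 1 member whose groups did not overlap, beside 29.4% of tested genes in either direction and 12.3% with the Lck-cre group lower. Without control replicate 1, control replicate 2 or Lck-cre replicate 5, Ifi209 was no longer past the threshold, at log2 differences of -0.42, -0.50 and -0.42. In bulk RNA, fewer cells of a type and less RNA per cell cannot be told apart, which holds for this and every other difference here.

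Mndal, named for its likeness to the myeloid nuclear differentiation antigen MNDA, had the smallest fitted difference of the 5. It measured 37.4, 28.2, 31.1 and 27.2 FPKM in control replicates 1 to 4 and 36.5, 27.7, 30.9 and 29.9 in Lck-cre replicates 5 to 8. The female was the highest sample in each group, and the ranges of the groups lay almost on top of each other. The means were 31.0 ± 4.60 and 31.2 ± 3.77 FPKM (SD, n = 4 each), with a fitted log2 difference of 0.02 (SE 0.07), whose sign turned to -0.058 with TPM values, -0.020 with quantile normalization and -0.006 with median-of-ratios scaling.

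Ifi203, which encodes a nuclear member of the family, measured 19.3, 11.0, 13.7 and 10.8 FPKM in controls and 18.2, 11.1, 13.2 and 17.2 in Lck-cre samples, again in replicate order. The females were again the highest of each group, and Lck-cre replicate 8, a male, came close to them. Its means were 13.7 ± 3.94 and 15.0 ± 3.34 FPKM (SD, n = 4 each), a fitted log2 difference of 0.13 (SE 0.14).

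The neighbours in sequence Ifi208, Ifi206 and Ifi213 spread more widely. Ifi208 measured 5.33, 3.17, 3.12 and 2.47 FPKM in controls and 3.82, 2.35, 2.94 and 3.93 in Lck-cre samples, with a fitted log2 difference of -0.07 (SE 0.16) whose sign turned to 0.047 with males only. Ifi206 measured 3.23, 1.56, 2.10 and 1.24 FPKM in controls and 3.87, 1.21, 2.16 and 4.07 in Lck-cre samples, with means of 2.03 ± 0.877 and 2.83 ± 1.38 (SD, n = 4 each) and a log2 difference of 0.35 (SE 0.27). In both genes the groups overlapped, and Lck-cre replicates 5 and 8 were the high samples of their group and replicate 6 the low one. Ifi213 showed the same high and low samples at a lower level, with 0.540, 0.142, 0.203 and 0.201 FPKM in controls and 0.903, 0.154, 0.238 and 1.77 in Lck-cre samples. Its 2 highest samples were thus Lck-cre replicates 8 and 5, while the other 2 Lck-cre samples lay within the control range.

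Ifi211 and Ifi204 were barely detected. Ifi204 encodes p204, a DNA sensor that acts upstream of STING in macrophages. It was listed at 0 in 2 samples (control replicate 4 and Lck-cre replicate 5) and reached at most 0.203 FPKM. Ifi211 was listed at 0 in control replicates 3 and 4, at 0.658 and 0.279 FPKM in control replicates 1 and 2, and at 0.488, 0.303, 0.448 and 0.504 in Lck-cre replicates 5 to 8. The deposited coverage per base reached 5.11 at most for Ifi211, against 114 to 229 for Ifi209. No fold is given for either gene.

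**Figure D1:**
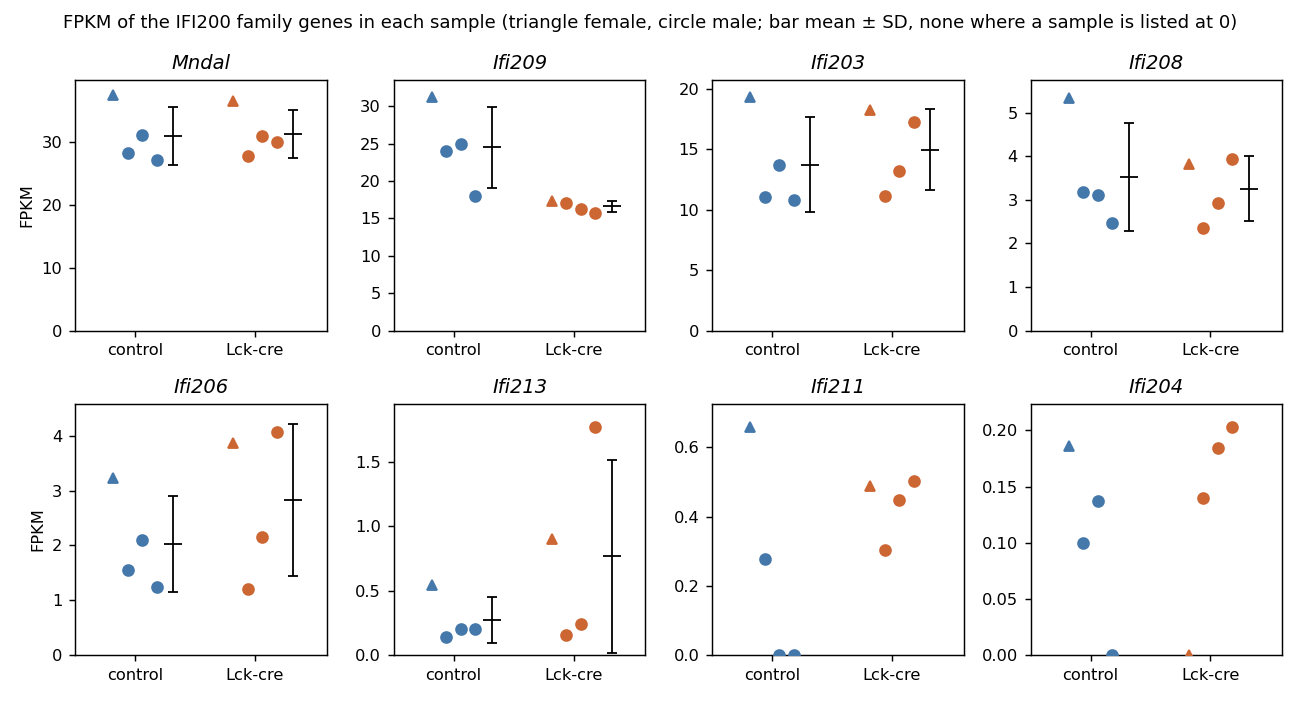
FPKM (vertical axis, linear and starting at 0, a separate scale for each gene) of the 8 genes in the control and Lck-cre groups, with 1 point per sample in replicate order, triangles for females and circles for males, and the mean ± SD (n = 4) beside each group where no sample is listed at 0. In Ifi209 the 4 Lck-cre samples sit between 15.7 and 17.4 FPKM, below all 4 controls, while in the other genes the groups overlap.

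Each member shares part of its sequence with relatives, and no source used here says how the reads of shared stretches were assigned. In GENCODE M21 transcripts, 35.1% of the 50-base stretches of Ifi209 also occur in another gene, nearly all of them in Ifi214 (34.7%). At 100 bases the share was 17.9% for Ifi209, and over the 8 members it ran from 3.93% (Ifi203) to 56.9% (Ifi211). For the other well expressed genes the 50-base share was 30.1% (Mndal) and 16.5% (Ifi203). For Ifi206, Ifi208 and Ifi213 it was 25.6%, 25.9% and 21.8%, mostly shared among themselves, and for Ifi211 72.8%. The values of Ifi209 and Ifi214, and of Ifi206, Ifi208 and Ifi213, are therefore uncertain relative to each other. The same holds for Ifi211, whose 50-base stretches also occur in Ifi205 (44.7%), Ifi204 (30.1%) and Mndal (17.1%). It also holds for Ifi204, with a share of 30.2%, mostly with Ifi211 (23.2%). Mndal shared stretches with Ifi211 (13.6%), Ifi205 (12%) and Ifi203 (10.5%), so its values carry this limit too. Ifi214 measured 0.985, 0.639, 0.778 and 0.534 FPKM in controls and 0.721, 0.494, 0.539 and 0.575 in Lck-cre samples, so it lay far below Ifi209 in all 8 samples and its groups overlapped.

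The share of the family's RNA that Ifi209 made up is given as a description. It is computed from the same Ifi209 values on which the genes were picked, so it adds no separate result. The 8 genes summed to 97.8, 68.4, 75.3 and 59.9 FPKM in control replicates 1 to 4 and 81.2, 60.0, 66.3 and 73.3 in Lck-cre replicates 5 to 8, and these sums overlapped. Ifi209 took 30.1% to 35.0% of the sum in controls and 21.4% to 28.4% in Lck-cre samples (32.5% ± 2.09 and 24.0% ± 3.31, SD, n = 4 each). Its ratio to Mndal was 0.663 to 0.851 in controls and 0.476 to 0.617 in Lck-cre samples, and its ratio to Ifi203 was 1.62 to 2.18 and 0.912 to 1.53. Both ratios are free of the scaling between samples, and neither overlapped between groups. They restate the Ifi209 values too. Of single tested genes 29.4% did not overlap between groups, and the like share over ratios of genes was not computed. The share of Mndal was 38.2% to 45.3% in controls and 40.7% to 46.5% in Lck-cre samples, and that of Ifi203 was 16.1% to 19.7% and 18.6% to 23.5%, with overlap in both.

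**Figure D2:**
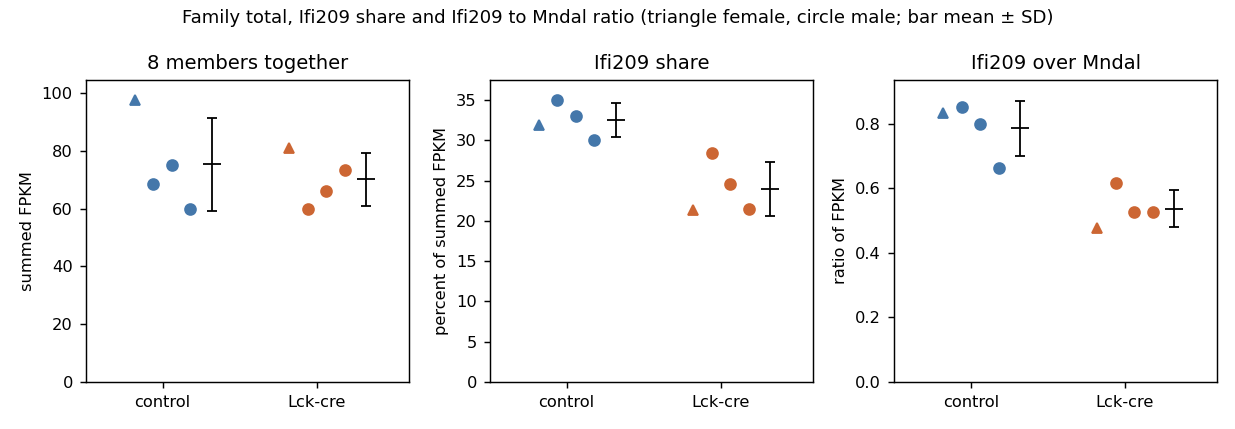
Summed FPKM of the 8 genes (left), Ifi209 as a percent of that sum (middle) and the ratio of Ifi209 to Mndal (right) in each control and Lck-cre sample, with triangles for females, circles for males and the mean ± SD (n = 4) beside each group. The sums overlap, while the Ifi209 share is 30.1% to 35.0% in controls and 21.4% to 28.4% in Lck-cre samples.

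The genotype differences of the 5 tested members had a median log2 value of 0.02, beside 0.01 over all 12337 tested genes. Of all tested genes, 1901 were called higher and 1279 lower, and with TPM values 2067 of 3367 called genes were lower, so the split of directions rested on the scaling. Ifi209 was lower under each scaling tried.

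Sex is a contrast that played no part in the choice of the genes. The fitted female minus male difference was above 0 in 5 of 5 tested members, beside 55.1% of tested genes. Before adjustment 4 of 5 had a limma p under 0.05 with the females higher, beside 2.5% of tested genes, but none passed after adjustment over all tested genes (adjusted p 0.740 to 0.999), as 0.0811% of tested genes did. The members share libraries and sequence, so they do not count as separate observations. For Mndal the log2 difference was 0.34 (SE 0.08, limma adjusted p = 0.740). For Ifi203 it was 0.55 (SE 0.16, limma adjusted p = 0.929). In these genes both females lay above all 6 males, which 2.43% of tested genes showed, and with Ifi209 they were 3 members in which the female was the highest sample of each group, which 6.54% of tested genes showed. Ifi206 (0.75, SE 0.31), Ifi208 (0.54, SE 0.18) and Ifi209 (0.29, SE 0.13) had adjusted p of 0.999 by limma. Their females did not stand above all males, since Lck-cre replicate 8 exceeded Lck-cre replicate 5 in Ifi206 and Ifi208, and in Ifi209 the Lck-cre female lay below every control. The females numbered 1 in each group, and control replicate 1 was the highest control in all 8 members, as it was in 31% of tested genes. Without that sample the log2 sex differences were 0.31 for Mndal, 0.41 for Ifi203, 0.67 for Ifi206, 0.30 for Ifi208 and 0.09 for Ifi209.

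**Figure D3:**
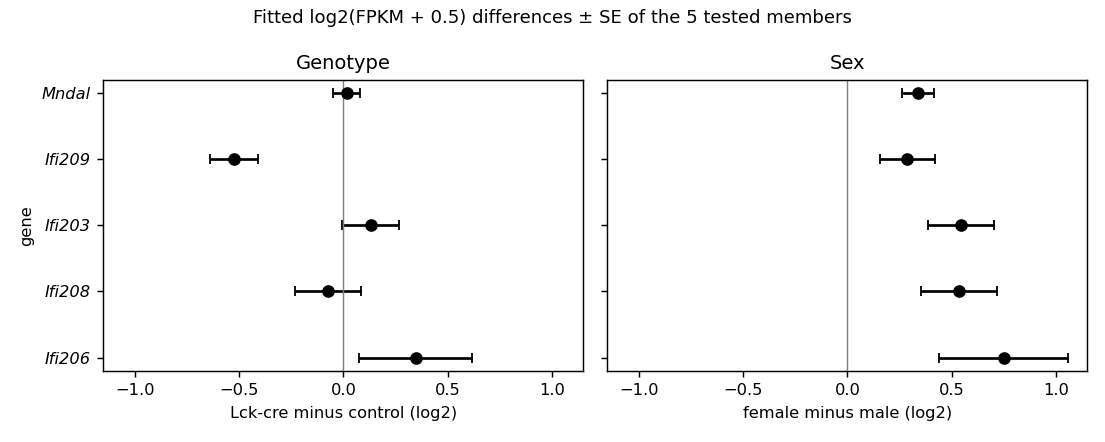
Fitted differences on the log2(FPKM + 0.5) scale (horizontal axes) of the 5 tested genes, Lck-cre minus control on the left and female minus male on the right, with bars of ± 1 SE from limma. On the left Ifi209 lies at -0.52 and the other genes between -0.07 and 0.35, and on the right all 5 lie above 0, from 0.29 to 0.75.

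The Lck-cre samples differed among themselves in most members but not in the same way. Replicate 6 was the lowest Lck-cre sample in 6 of the 8 members, and the like share over all tested genes was not computed. In 4 of these members (Ifi206, Ifi208, Ifi211 and Ifi213) the order was replicate 8, 5, 7 and 6 from high to low. That was the order of Sting1 in these samples, which 8.41% of tested genes also had. Ifi211 and Ifi213 lay below the filter, so only Ifi206 and Ifi208 compare with that share. Ifi206, Ifi208 and Ifi213 share sequence, so their orders are not independent. The gene Isg15, a ubiquitin-like protein strongly induced by interferon and named here after its values were seen, had the order of Sting1 too. It measured 23.7, 7.92, 16.6 and 24.7 FPKM in replicates 5 to 8. Ifi209 had the order 5, 6, 7 and 8, within a span of 15.7 to 17.4 FPKM. The summed markers of gamma-delta T cells (67.7, 45.8, 56.1 and 76.9 FPKM in replicates 5 to 8, against 28.3 to 29.6 in controls) and of NK cells (79.0, 34.9, 59.4 and 88.9, against 16.4 to 26.7) also followed the order of Sting1. The NK sum was nearly all Gzma, with Ncr1 listed at 0 in all samples. Most of the gamma-delta sum was Trdc, at 57.5, 42.0, 47.5 and 61.7 FPKM in replicates 5 to 8 and 25.6 to 27.9 in controls. Il17a of that list was listed at 0 in all samples. The part of these cells in the members' values was not tested.

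**Figure D4:**
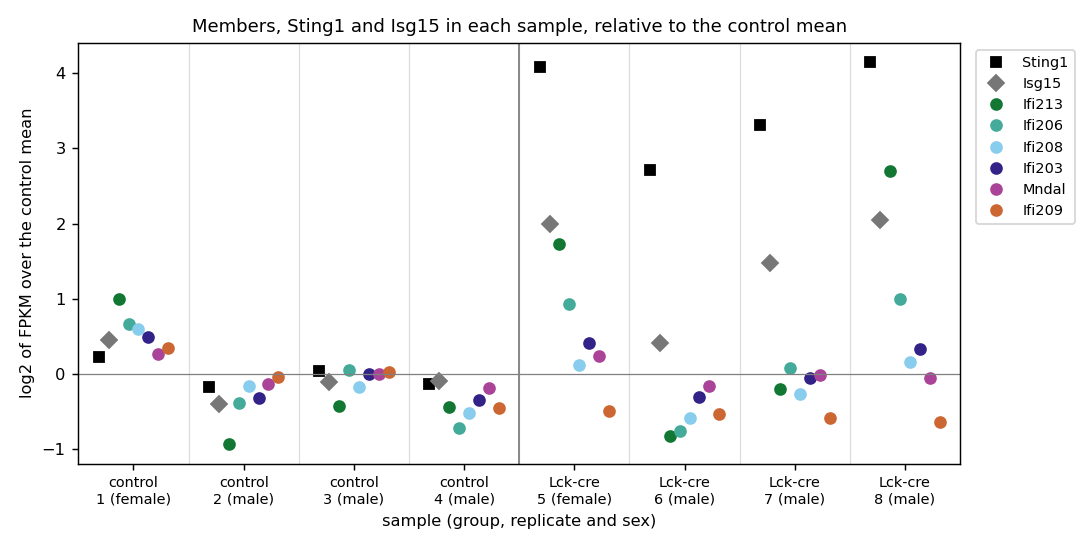
The log2 of the FPKM of 6 members, Sting1 and Isg15 over each gene's control mean (vertical axis) in the 8 samples, with 1 symbol per gene and no error bars since each point is 1 sample. Lck-cre replicates 5 and 8 are the high samples for Sting1, Isg15, Ifi206 and Ifi213, while Ifi209 lies below 0 in all 4 Lck-cre samples.

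Of the other marker lists, the summed DP markers were 6759 to 7332 FPKM in controls and 5656 to 7045 in Lck-cre samples, with 3 of 8 called lower and 0 higher. Dendritic cell markers rose in 2 of 2 tested genes (sums of 2.18 to 4.11 against 5.33 to 9.74 FPKM). These 2 were H2-Aa and H2-Ab1, which made up most of each sum. The other genes of that list stayed below 1 FPKM in all samples, but most had higher means in the Lck-cre group. Siglech had means of 0.0552 and 0.593 FPKM without overlap. Clec9a was listed at 0 in all controls and at 0.00773 to 0.163 FPKM in Lck-cre samples. The means of Itgax, Flt3 and Xcr1 were higher too, with overlap. Only Zbtb46 among them was not higher (means of 0.0106 and 0.00787 FPKM). Sums overlapped for B cells (12.3 to 16.9 against 7.85 to 15.5) and for monocytes and macrophages (10.6 to 13.5 against 12.3 to 17.2), the blood lineages in which several IFI200 genes are abundant. Thymic epithelium (7.47 to 8.92 against 7.10 to 9.70) and mature T cells (71.3 to 75.7 against 61.1 to 72.6) overlapped too, granulocyte sums were at most 0.198 FPKM, with S100a9 and Elane listed at 0 in all samples, and erythroid sums at most 0.319. The part of these cells in the members' values was not tested.

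Across samples, members were alike to different degrees once group means had been removed, which leaves the sex difference in. Over the 8 samples Pearson's r, given as a description of genes that share libraries and sequence, was 0.955 between Ifi203 and Ifi206, 0.948 between Ifi203 and Ifi208 and 0.897 between Ifi203 and Mndal. Ifi209 was less like them, with 0.629 to Ifi203, 0.492 to Ifi206 and 0.738 to Mndal. The 3 tested genes most like each member were Tmem221, H2-T24 and Rps6ka1 for Mndal (0.976 to 0.977) and Shpk, Commd8 and Tnfrsf14 for Ifi209 (0.976 to 0.980). For Ifi203 they were Tasp1, Lta and Luc7l2 (0.979 to 0.989), for Ifi206 Trgc2, Kctd17 and Renbp (0.988 to 0.989), and for Ifi208 Lars, Cgrrf1 and Scyl3 (0.983 to 0.994). Each is the top of 12337 genes over few samples.

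In the coordinates of the tables, whose build the sources used here do not name, the members lie on chromosome 1 between 173296051 and 173770238, a span of 474 kb that lists 17 genes. Among the 9 that are not members, 3 were listed at 0 in all samples. A gene of 84 bases on the opposite strand inside Ifi209, ENSMUSG00002076962.1 (173471077 to 173471160), named after its values were seen, measured 0.397, 0.262, 0.398 and 0.677 FPKM in controls and 0.0716, 0.151, 0.0954 and 0.0559 in Lck-cre samples. It lay below the filter, its groups did not overlap, and without a statement on strand its reads cannot be told apart from those of Ifi209.

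The PYHIN genes outside the 8 were low. Aim2, which binds cytosolic DNA and assembles an inflammasome, lies next to the cluster and was the 1 of 6 found that was tested. It measured 3.53, 3.66, 2.97 and 2.33 FPKM in controls and 2.71, 2.69, 2.25 and 2.05 in Lck-cre samples, with overlap, a log2 difference of -0.30 (SE 0.13) and a limma adjusted p of 0.124. Ifi205 measured 0.591, 0.352, 0 and 0.553 FPKM in controls and 0.549, 0.343, 0.473 and 0.620 in Lck-cre samples, Ifi203-ps 0.0935 to 0.199 over all samples and Ifi207 at most 0.0593. Ifi202b was listed at 0 in all 8 samples.

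Genes that work before and after the family were read from lists of related genes. Of 24 tested genes of cytosolic nucleic acid sensing, 4 rose and 1 fell, beside 15.4% and 10.4% of all tested genes. Sting1, the engineered gene used above as the check of the labels, was 1 of the 4 that rose. The number that rose was 2 without control replicate 1 or Lck-cre replicate 5 and 9 without Lck-cre replicate 6, and the 1 that fell was lost with any 1 of 7 samples left out. Rnaseh2b, a subunit of the enzyme that removes ribonucleotides from DNA, rose from 20.1 ± 1.68 to 29.7 ± 2.30 FPKM (SD, n = 4 each; log2 difference 0.56, SE 0.07, limma adjusted p = 0.00723). Irf3, the transcription factor that STING signalling activates, fell from 108 ± 2.91 to 92.0 ± 8.83 FPKM (SD, n = 4 each; log2 difference -0.24, SE 0.08, limma adjusted p = 0.0474). Of 4 tested inflammasome genes none passed in limma, also before adjustment, and Aim2, above, had the smallest p.

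Of 13 tested interferon receptor and transcription factor genes, 3 rose and 1 fell. Irf8 rose by a log2 difference of 0.60 (SE 0.14, limma adjusted p = 0.0194) and the receptor chain Ifnar2 by 0.28 (SE 0.07, adjusted p = 0.0248), and the receptor kinase Jak1 fell by 0.27 (SE 0.08, adjusted p = 0.0326). With TPM values 1 rose and 2 fell, and without control replicate 1, control replicate 2 or Lck-cre replicate 5 none of the 13 passed. The call of Ifnar2 also ended with TPM values and on leaving out control replicate 4, Lck-cre replicate 7 or Lck-cre replicate 8, and that of Jak1 on leaving out the first or the last of these. Of 35 tested interferon-stimulated genes, 11 rose and 1 fell, and their median log2 difference was 0.39, beside 0.02 for the 5 tested members. Epsti1 rose from 61.4 ± 7.24 to 105 ± 13.6 FPKM and Bst2, which tethers budding virus to the cell, from 30.4 ± 4.83 to 54.8 ± 11.3 (SD, n = 4 each), with limma adjusted p of 0.0075 and 0.00798. Znfx1 fell by a log2 difference of 0.30 (SE 0.08, limma adjusted p = 0.0261), a call that ended with any 1 of 6 samples left out (controls 1, 2 and 4 and Lck-cre samples 5, 7 and 8). The number that rose was 2 without control replicate 1 or Lck-cre replicate 5, 4 without control replicate 2, 6 without control replicate 4, 7 without Lck-cre replicate 7 and 23 without Lck-cre replicate 6. The fitted sex difference was above 0 in 34 of these 35 genes, with a median log2 value of 0.30, beside 0.54 for the 5 tested members.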

How the data were processed

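RNA of 8 sorted thymocyte samples was sequenced. Per the file headers, each deposited table gives coverage, FPKM and TPM values per gene, which the authors computed. HISAT and Bowtie2 are named in the submitters' processing notes, and the sources used here do not give versions, roles, quantifier, genome build, annotation or strand. FPKM values of a repeated gene ID were summed. Genes with at least 1 FPKM in at least 4 of 8 samples were tested with limma 3.58.1 in R 4.3.3 on log2(FPKM + 0.5), with terms for sex and genotype, trended empirical Bayes and Benjamini-Hochberg adjustment over 12337 genes at a threshold of 0.05, since the tables hold no counts for a count model. The fit was checked on simulated data with independent noise in each gene, and the outcome is not reported here. RefSeq promoter windows were searched for the ISRE and GAS cores, and GENCODE M21 transcripts for shared stretches of 50 and 100 bases. Other tools were Python 3.11.15, pandas 2.3.3, numpy 2.4.6, scipy 1.17.1 and matplotlib 3.10.9.

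The members, lists, markers and tests were chosen with earlier results of these data known. The genes named were all members and other PYHIN genes found, from each list of related genes the 2 called higher and the 2 called lower at the smallest adjusted p (or the 1 with the smallest p where none passed), the 3 genes most like each tested member, Sting1, and Rag1, Cd4 and Cd8a. Of 116 list entries, 108 were found. Alternatives covered scaling, TPM, pseudocount, filter, sex term, males only and each sample left out. The FPKM values come without counts, so their counting error is unknown, and precision is also limited by the 4 samples of each group.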

Additional observations from a re-analysis of the deposited data

Results flagged for a closer look

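Ifi213 stood apart in control replicate 1, the female control, at 0.540 FPKM, against 0.142 to 0.203 FPKM in the other 3 controls. The gap to the nearest control was 0.847 of the whole range of the group, above the critical value of Dixon's test for 4 samples. It was the 1 such sample in 26 gene and group combinations examined, and chance alone marks a small share of such groups. Ifi213 lay below the filter on low values, and control replicate 1 was the highest control in all 8 members.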

How the results depend on the processing

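The members' genotype values are a description, since the genes were picked on them. The log2 difference ran over 17 alternatives from -0.64 to -0.42 for Ifi209, and that of Ifi203 and Ifi206 stayed above 0. The number of members past the threshold was 1, and 0 with no filter, with males only and at the low end of leaving out 1 sample (0 to 1). Mndal changed sign with quantile normalization (-0.020), TPM (-0.058), median-of-ratios scaling (-0.006), and without control replicate 4 (-0.016) or Lck-cre replicate 7 (-0.011), over a range of -0.016 to 0.052 on leaving out 1 sample. Ifi208 changed sign with males only (0.047) and without control replicate 1 or Lck-cre replicate 5 (0.047) or replicate 6 (0.012), over -0.212 to 0.047. The cause was not tested. Genes called in the whole table fell to 1056 with no filter and 615 with males only, and ranged from 636 to 3865 on leaving out 1 sample. Those lower in Lck-cre numbered 2067 with TPM, 360 with no filter, 208 with males only and 215 to 1672 on leaving out 1 sample. Called genes of the related lists numbered 21, and 4 with no filter or males only, and 4 to 41 on leaving out 1 sample. For sex, 0 members were called by limma in any of 15 alternatives. No paired analysis was possible because the groups share no replicate numbers. Depth in reads is unknown, 3 of the 8 genes were too low to test, each group had 1 female, and reads shared between relatives limit the split of levels within the family.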
